A study of Mus musculus with 24 samples.

Results

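The response difference between epithelial lines and macrophages was taken from all 24 arrays of the series. For each gene it is the mean change that an inflammatory supernatant gave in 2 epithelial lines, minus the change that the same supernatant gave in macrophages. The samples were assigned by title to 6 groups of 4 arrays, and every array entered the comparison. C57epi.1 is a line from C57BL/6 mice, grown out of the upper reproductive tract, and Bm12.4 is its counterpart from B6(C)-H2-Ab1bm12/KhEgJ mice, whose MHC class II beta chain is mutant. Macrophages had been grown from C57BL/6 femur bone marrow with GM-CSF. In the supernatant groups, monolayers received RPMI conditioned by a Chlamydia-specific CD4 T cell clone on infected epithelium, at 33% by volume and with interferon-gamma brought to 4 ng/ml. In the media groups they received RPMI alone, and all groups shared the same growth medium. The treatment time, the passage of the lines and the number of mice behind the macrophages are not stated by the labels, and each genotype is represented by 1 line. Nothing in the labels shows whether replicates came from separate cultures, and the p-values therefore describe spread between arrays that may be technical in part.

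Interferon-gamma binds its receptor on nearly all nucleated cells and acts through Jak kinases, which leads to the induction of Irf1 and then of guanylate-binding proteins, chemokines and antigen presentation genes. Macrophages already carry MHC class II and costimulatory proteins and kill intracellular microbes when so activated. Epithelial cells of the reproductive tract are the cells in which genital Chlamydia grows, and they acquire MHC class II through the transactivator Ciita when interferon-gamma is present.

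A positive difference means that the change in the lines lay above the change in macrophages, and all levels and differences below are on the log2 scale, where 1 unit is a doubling. Over 19938 genes the difference was called for 1611 (8.08%) by limma at an adjusted p under 0.05. The difference was higher in the lines for 852 (4.27%) and lower for 759 (3.81%). In 707 of the 1611 each line on its own was called the same way against macrophages (380 higher and 327 lower), in 94 neither line was, and in 22 the lines had opposite signs. Of the higher and lower calls, 299 and 224 differed at least 2-fold, and the median over all genes was -0.025. Set against macrophages on its own, C57epi.1 gave 1980 calls (9.93%) and Bm12.4 gave 1124 (5.64%). These comparisons share the macrophage arrays. The lines' mean change was itself a called rise for 1753 genes (8.79%) and a fall for 2241 (11.2%), and the macrophages' change a rise for 1223 (6.13%) and a fall for 1259 (6.31%).

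Macrophage markers and stromal genes parted the macrophages from both lines. Epithelial markers varied between the lines, and their mean level lay little above that of macrophages. The mean level of 24 epithelial markers was 5.60 to 5.73 on the arrays of C57epi.1 and 5.26 to 5.36 on those of Bm12.4, against 5.02 to 5.20 in macrophages. Ptprc, Csf1r and Itgam, the leukocyte and macrophage markers, lay between 3.17 and 4.72 on all arrays of the lines, against 11.21 to 12.32 in macrophages. Cd68, a lysosomal macrophage protein, lay between 5.57 and 7.60 in the lines. The epithelial adhesion gene Epcam lay between 3.42 and 3.93 in the lines, near its macrophage values of 3.62 to 3.88, and Cdh1, which encodes E-cadherin, lay between 4.14 and 4.68 there and was higher in macrophages at 5.87 to 7.95. The keratin Krt8 lay between 8.75 and 9.70 in C57epi.1 and between 5.45 and 5.95 in Bm12.4. The mean level of 33 stromal and matrix genes was 8.13 to 9.53 on the lines' arrays, against 5.69 to 6.09 in macrophages. The mean level of 15 T cell markers was 3.84 to 3.93 on supernatant arrays of the lines and 3.84 to 4.06 on their media arrays. In macrophages it was 4.25 to 4.46 with supernatant and 4.33 to 4.49 in media. In media, replicates 3 and 4 of both lines stood apart from replicates 1 and 2. Mean mitosis levels were 7.23 and 7.57 against 9.72 and 9.70 in Bm12.4, and 9.10 and 9.16 against 10.02 and 9.95 in C57epi.1. For the gene lists whose count of calls moved over 1.5 times when either pair of the lines' media arrays was left out, both counts are given below. Without media replicates 3 and 4 of the lines 2785 genes were called, and without media replicates 1 and 2 of the lines 5083 were.

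**Figure D1:**
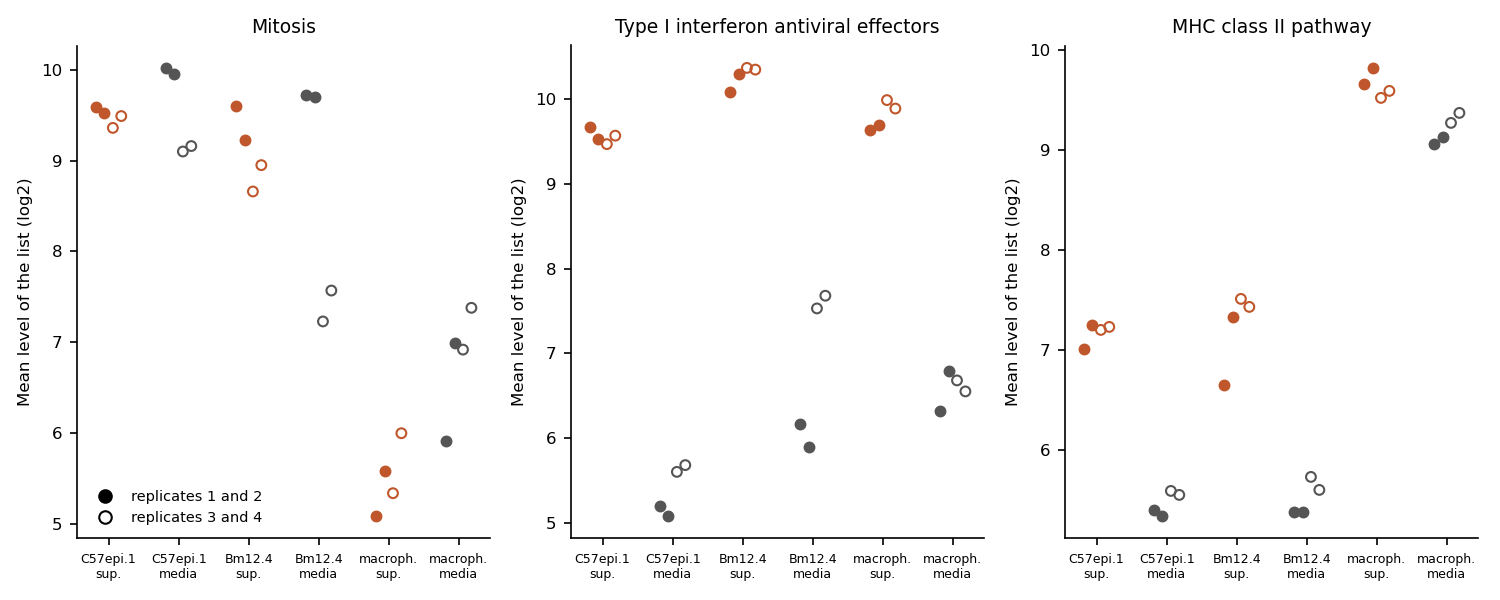
Mean log2 level of the mitosis, type I interferon effector and MHC class II lists on each array, with supernatant (orange) left of media (grey) for C57epi.1, Bm12.4 and macrophages. Filled points are replicates 1 and 2 and open points replicates 3 and 4; the open media points of Bm12.4 lie at 7.23 and 7.57 for mitosis, below the filled ones at 9.72 and 9.70.

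Each called difference was sorted by what moved. The largest group, 383 genes with a higher difference, fell in macrophages with no called change in the lines, and 261 rose in the lines with no called change in macrophages. In 88 genes both rose and the lines rose more, in 49 both fell and macrophages fell more, and in 44 the lines rose while macrophages fell. Of the lower differences, 367 rose in macrophages with no called change in the lines and 229 fell in the lines with no called change in macrophages. In 82 both rose and macrophages rose more, in 44 the lines fell while macrophages rose, and in 2 both fell. The remaining 27 higher and 35 lower genes had neither change called. These groups divide the difference into its own terms and add no evidence for it, and a change that was not called is not shown to be absent. Without media replicates 3 and 4 of the lines, 504 genes rose in the lines alone and 522 fell in them alone. Without media replicates 1 and 2 of the lines these counts were 1437 and 1487. Smaller groups moved as well. Without the same pairs, in that order, 140 and 274 genes rose in the lines while macrophages fell. The reverse was seen in 65 and 156 genes, and 14 and 122 genes with a lower difference fell in both.

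**Figure D2:**
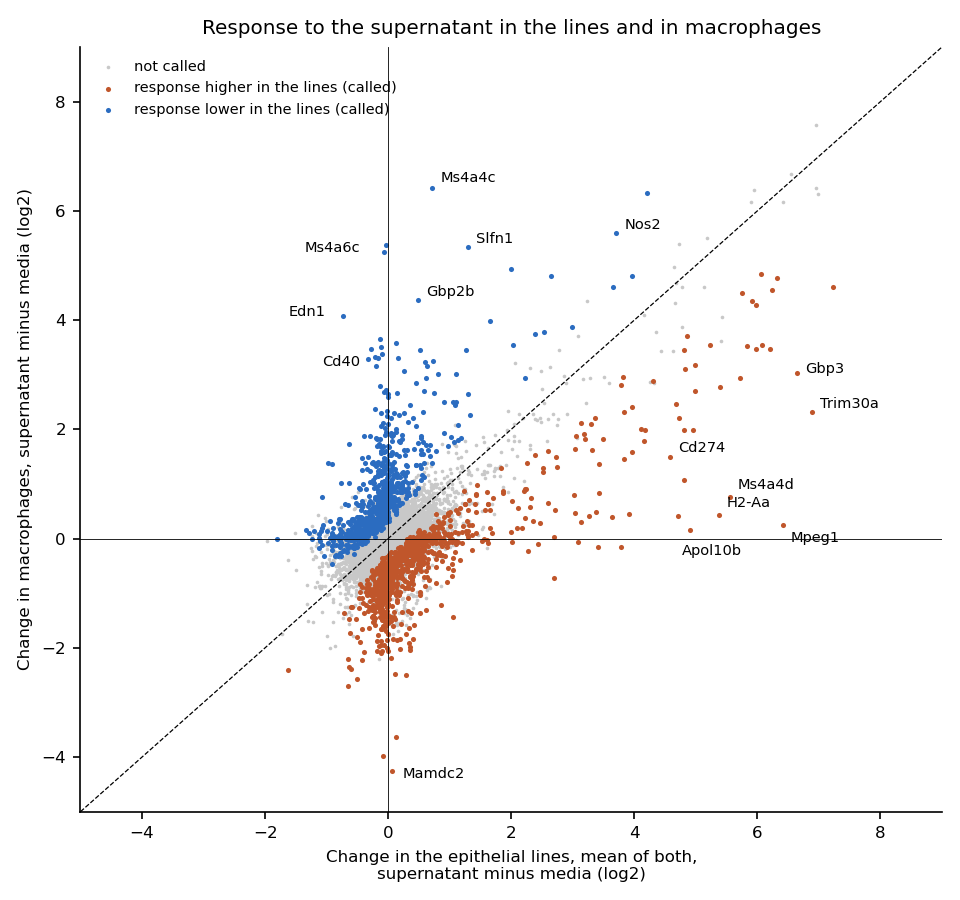
Change with supernatant in the lines (horizontal axis, mean of both, log2) and in macrophages (vertical axis, log2) for 19938 genes, with the 852 genes called higher in the lines in orange, the 759 called lower in blue and the others in grey; the dashed line marks equal change. Mpeg1 and Apol10b lie at the right near a macrophage change of 0. Ms4a4c and Ms4a6c lie in the upper part near a lines' change of 0, and Edn1 lies below them, left of 0, with a called fall in the lines.

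The MHC class II pathway shows antigen to CD4 T cells. Of its 14 measured genes, 7 rose and 2 fell in the lines (8.79% and 11.2% over all genes), and 4 rose in macrophages (6.13%). The difference was higher in 7 and lower in 2 (64.3%, against 8.08% over all genes). The median was 0.94, against -0.025 over all genes. H2-Aa, the class II alpha chain, had levels of 8.59, 8.84, 8.66 and 8.78 on supernatant arrays, against 3.80, 3.33, 3.49 and 3.14 on media arrays of C57epi.1. It had 7.22, 8.86, 9.85 and 9.31 on supernatant arrays, against 3.14, 3.65, 3.40 and 3.20 on media arrays of Bm12.4, and 12.54, 12.64, 12.24 and 12.45 on supernatant arrays, against 11.72, 11.95, 12.19 and 12.28 on media arrays of macrophages. The lines' arrays with supernatant all lay above those in media, by 5.28 in C57epi.1 and 5.46 in Bm12.4, while the macrophage change of 0.43 was not called (adjusted p = 0.534). For H2-Aa, the lines minus macrophages gave 4.94 (SE 0.402, adjusted p = 1.28e-08). Bm12.4 replicate 1 was the lowest of its supernatant arrays for H2-Aa and for H2-Ab1.

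The invariant chain Cd74, which escorts class II to the endosome, and H2-Ab1, the beta chain that is mutant in Bm12.4, followed. Cd74 differed by 4.28 (SE 0.447, adjusted p = 5.96e-07). The lines differed from macrophages in H2-Ab1 by 3.47 (SE 0.432, adjusted p = 7.84e-06). H2-Ab1 had 7.16, 9.18, 10.04 and 9.56 on supernatant arrays, against 4.02, 4.25, 4.23 and 4.19 on media arrays of Bm12.4, a change of 4.81, and its change in C57epi.1 was 3.02. Macrophages had H2-Ab1 levels of 12.95 to 13.25 with supernatant and 12.34 to 12.94 in media, near the top of the range of the arrays (14.57). Whether such levels limited the measured change was not tested. Whether the H2-Ab1 probes meet the bases that differ in Bm12.4 was not tested.

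Ciita, the transactivator that switches class II genes on, lay lower on the scale. It had 6.83, 6.78, 6.63 and 6.64 on supernatant arrays, against 3.99, 4.56, 4.25 and 4.53 on media arrays of C57epi.1. Macrophages had 7.61, 7.59, 7.85 and 7.84 on supernatant arrays, against 7.02, 7.11, 7.37 and 7.11 on media arrays. The groups did not overlap in any of the 3 kinds of cell, and the change was 2.39 in C57epi.1 and 2.22 in Bm12.4, against 0.57 in macrophages (adjusted p = 0.00526 in macrophages). The response difference of Ciita was 1.73 (SE 0.166, adjusted p = 1.76e-07). Also higher were H2-Eb1 (2.56), another beta chain, H2-DMa (2.18), which loads peptides onto class II, and Ctss (2.68), the protease that trims the invariant chain. The 2 lower genes were H2-Oa (-1.61) and H2-Ob (-0.87), the chains of the H2-O protein that restrains H2-DM. H2-Oa rose by 1.83 and H2-Ob by 0.79 in macrophages, with adjusted p = 1.86e-06 and 0.000499. The list's calls numbered 10 without media replicates 3 and 4 of the lines and 11 without media replicates 1 and 2.

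Of 17 measured MHC class I and peptide loading genes, 15 rose in the lines and 15 in macrophages, against 8.79% and 6.13% over all genes. A called difference was found in 3 (17.6%, against 8.08% over all genes). These were B2m (0.96), H2-Q4 (0.85), which lost its call in 9 of 36 alternatives, and Nlrc5 (-0.91). Tap1, the peptide transporter, rose by 2.33 in C57epi.1 and 3.46 in Bm12.4, against 2.84 in macrophages, and its difference was 0.06 (SE 0.245, adjusted p = 0.938). Nlrc5, the class I transactivator, fell by 0.42 in C57epi.1, rose by 1.03 in Bm12.4 and rose by 1.22 in macrophages. The list had 7 calls when either pair of media replicates of the lines was left out.

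**Figure D3:**
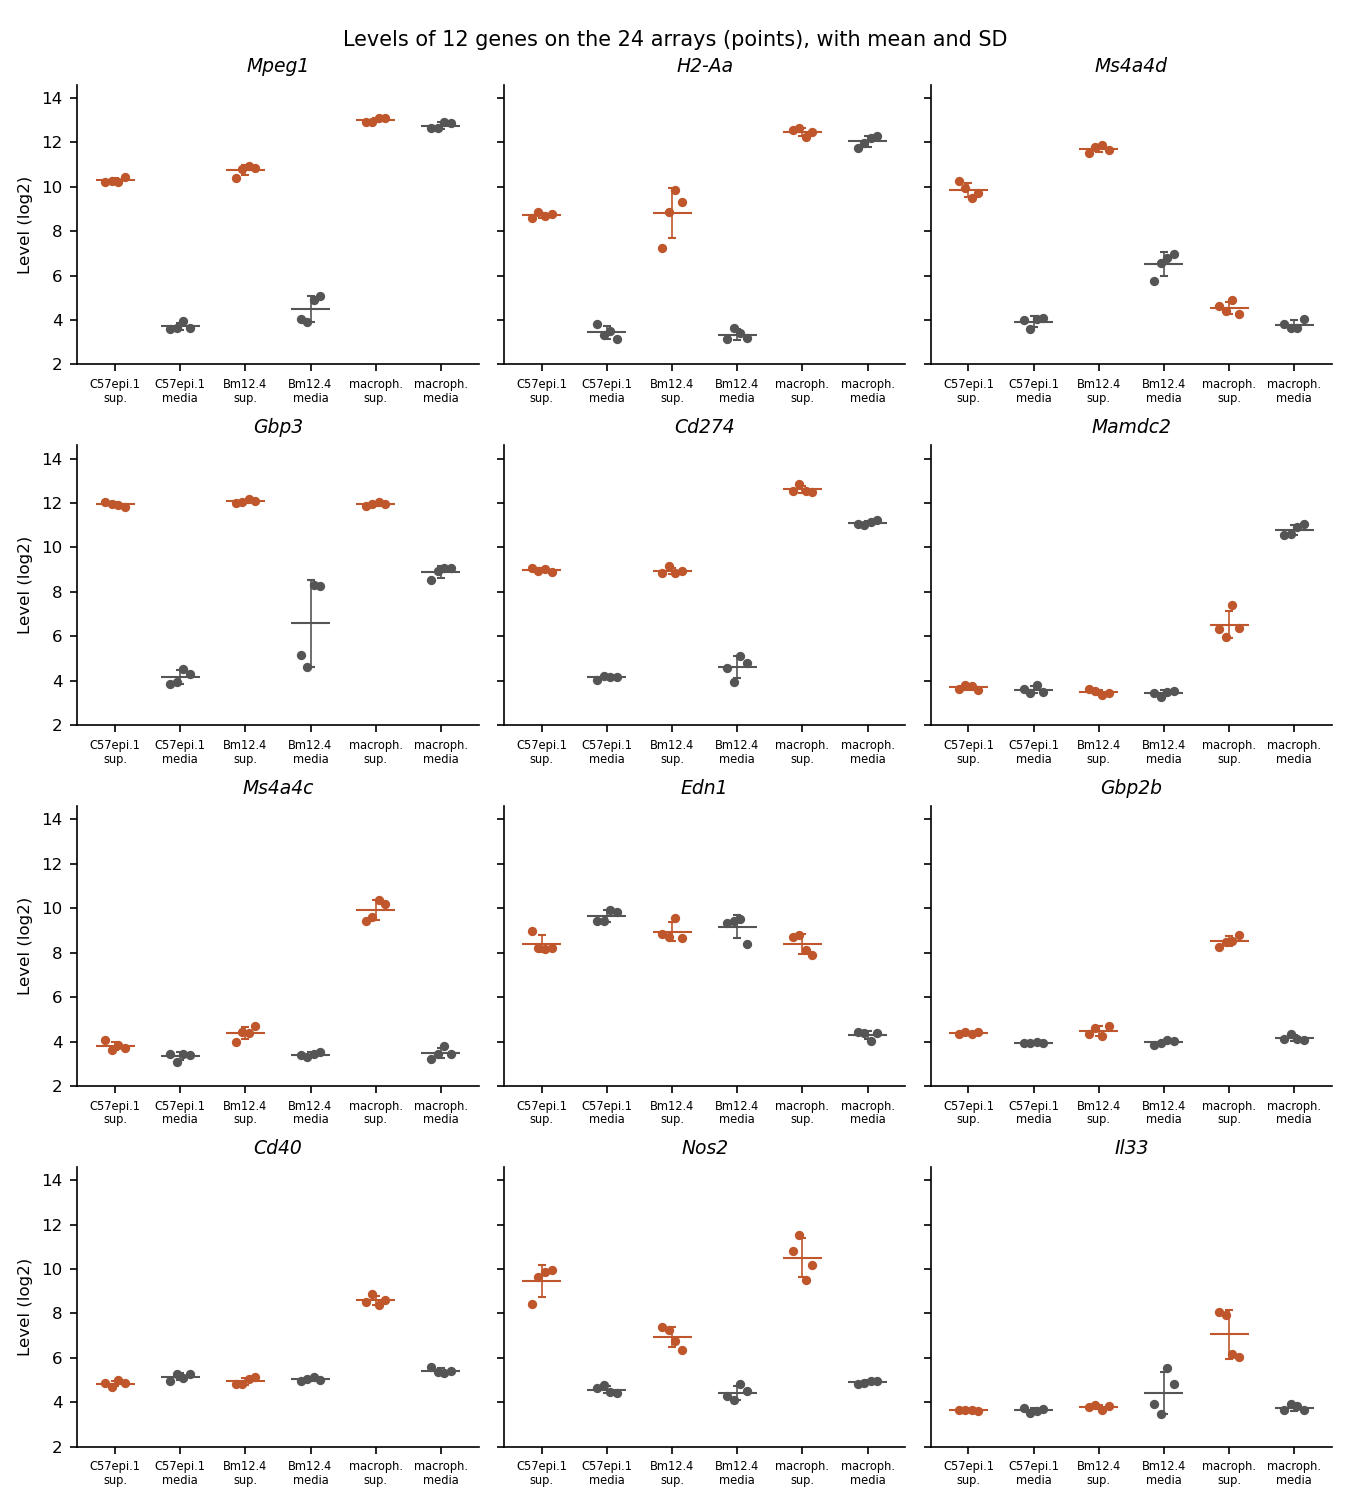
Log2 level of 12 genes on each of the 24 arrays, with supernatant (orange) left of media (grey) for C57epi.1, Bm12.4 and macrophages; bars are the mean and SD of 4 arrays. H2-Aa and Mpeg1 rose by over 5 units in each line, Ms4a4c rose by 6.42 in macrophages, and Mamdc2 averaged 6.53 in macrophages with supernatant and 10.78 in media.

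Mpeg1, which encodes the pore-forming protein perforin-2, had the largest difference of all genes named. It had 10.23, 10.24, 10.22 and 10.43 on supernatant arrays, against 3.58, 3.65, 3.96 and 3.65 on media arrays of C57epi.1. It had 10.41, 10.78, 10.91 and 10.85 on supernatant arrays, against 4.06, 3.90, 4.91 and 5.07 on media arrays of Bm12.4, and 12.93, 12.93, 13.09 and 13.07 on supernatant arrays, against 12.62, 12.64, 12.90 and 12.85 on media arrays of macrophages. The lines reached 10.22 to 10.91 with supernatant, below the macrophage media arrays. By limma the macrophage change of 0.25 was not called (adjusted p = 0.515), although all supernatant arrays lay above all media arrays. These macrophage levels lay near the top of the range of the arrays (14.57), and whether that limited the measured change was not tested. For Mpeg1, the lines minus macrophages gave 6.16 (SE 0.228, adjusted p = 3.71e-14). Mpeg1 is widely used as a macrophage marker. The mean level of the 22 macrophage identity genes, Mpeg1 among them, was 4.59 to 4.81 on supernatant arrays and 4.28 to 4.62 on media arrays of the lines, and 11.65 to 11.79 on supernatant arrays and 11.86 to 11.89 on media arrays of macrophages. The part of other cells in the Mpeg1 level of the lines was not tested.

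Apolipoprotein L genes, whose products include membrane-acting proteins, were also among those with a called rise in the lines and none in macrophages. Apol10b had 9.16, 9.05, 8.95 and 8.85 on supernatant arrays, against 3.87, 3.84, 4.29 and 4.73 on media arrays of C57epi.1, and 3.80, 4.02, 3.89 and 3.95 on supernatant arrays, against 3.69, 3.79, 3.95 and 3.63 on media arrays of macrophages. Its levels in macrophages stayed near the low end of the scale with and without supernatant. Apol10b differed by 4.76 (SE 0.188, adjusted p = 6.08e-14). Apol6 differed by 3.94 and Neurl3, a ubiquitin ligase gene, by 3.57. For Neurl3 the supernatant brought the lines to 8.92 to 9.99, close to the macrophage levels of 9.36 to 9.85, against 5.70 to 6.38 in the lines' media arrays.

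Guanylate-binding proteins, large GTPases that coat and break open vacuoles holding microbes, rose in both kinds of cell. All 8 measured genes rose in the lines and in macrophages, against 8.79% and 6.13% over all genes. Of them 5 differed higher and 1 lower (75%, against 8.08% over all genes), with a median of 1.63. Gbp3 had 12.06, 11.94, 11.91 and 11.84 on supernatant arrays, against 3.86, 3.93, 4.51 and 4.31 on media arrays of C57epi.1. It had 12.01, 12.03, 12.16 and 12.08 on supernatant arrays, against 5.17, 4.61, 8.30 and 8.25 on media arrays of Bm12.4, and 11.87, 11.94, 12.03 and 11.97 on supernatant arrays, against 8.52, 8.96, 9.08 and 9.07 on media arrays of macrophages. All supernatant arrays lay within 11.84 to 12.16, so the difference came from the media arrays, where macrophages lay at 8.52 to 9.08 and C57epi.1 at 3.86 to 4.51. Whether the levels with supernatant limited the measured change was not tested. The lines differed from macrophages in Gbp3 by 3.59 (SE 0.652, adjusted p = 0.000735). It was 4.45 with replicates 1 and 2 and 2.73 with replicates 3 and 4, and media replicates 3 and 4 of Bm12.4 read 8.30 and 8.25.

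Gbp7 (2.53), Gbp9 (1.70), Gbp8 (1.69) and Gbp11 (1.57) were higher too, and Gbp2b ran the other way. Gbp2b had 4.35, 4.44, 4.36 and 4.41 on supernatant arrays, against 3.92, 3.95, 3.96 and 3.94 on media arrays of C57epi.1. It had 4.33, 4.61, 4.23 and 4.70 on supernatant arrays, against 3.84, 3.94, 4.05 and 4.03 on media arrays of Bm12.4, and 8.25, 8.46, 8.54 and 8.80 on supernatant arrays, against 4.11, 4.33, 4.10 and 4.09 on media arrays of macrophages. The lines moved by 0.45 and 0.50, and macrophages by 4.36. The response difference of Gbp2b was -3.88 (SE 0.129, adjusted p = 7.42e-15). Gbp genes are similar in sequence, so probes may share signal between members. The list kept 6 calls when either pair of media replicates was left out.

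Of the immunity-related GTPases, a related family that acts on the same vacuoles, 5 were measured. All 5 rose in macrophages and 4 in the lines, against 6.13% and 8.79% over all genes. Gm12250, also known as Irgb10, was higher by 2.63 (adjusted p = 3.62e-05), having risen by 7.61 in C57epi.1 and 6.85 in Bm12.4, against 4.60 in macrophages. Irgc1 differed by -0.73 and rose by 0.68 in macrophages, so 40% of the list was called, against 8.08% over all genes. The list had 3 calls without media replicates 3 and 4 of the lines and 4 without media replicates 1 and 2, with medians of 0.37 and -0.67, against 2 calls and -0.15 with all arrays.

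Type I interferon effectors, the antiviral genes that interferon-gamma also reaches, rose broadly in both: 31 of 33 in the lines and 31 of 33 in macrophages. The shares over all genes were 8.79% and 6.13%. Of these 33, 12 differed higher and 5 lower (51.5%, against 8.08% over all genes), with a median of 0.98. C57epi.1 minus macrophages had 20 calls and a median of 1.55, Bm12.4 minus macrophages had 6 calls and a median of 0.44, and 5 genes were called in both. The GTPase Mx2 differed by 2.49 and the Isg15 protease Usp18 by 2.32, and both rose in all 3 kinds of cell. The 2 furthest below 0 were Cmpk2 (-2.17), a mitochondrial nucleotide kinase, and Ifit2 (-2.11), which binds foreign RNA. Ifit2 rose by 4.52 in C57epi.1 and 3.89 in Bm12.4, against 6.32 in macrophages. Cmpk2 rose by 5.35 in Bm12.4 and 4.81 in macrophages, while its change in C57epi.1 was -0.06 (adjusted p = 0.935). The median of the list was 1.71 with replicates 1 and 2 and 0.25 with replicates 3 and 4. In media the mean level of these genes was 7.53 and 7.68 on replicates 3 and 4 of Bm12.4, against 6.16 and 5.89 on replicates 1 and 2. The list had 27 calls without media replicates 3 and 4 of the lines and 24 without media replicates 1 and 2, with medians of 1.56 and 0.25.

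Trim30a, a ubiquitin ligase gene of the interferon response, rose in all 3 kinds of cell. It had 11.73, 11.39, 11.26 and 11.37 on supernatant arrays, against 4.02, 3.73, 4.24 and 4.38 on media arrays of C57epi.1. It had 11.69, 11.95, 12.08 and 11.89 on supernatant arrays, against 4.24, 4.17, 6.70 and 6.76 on media arrays of Bm12.4, and 11.91, 11.96, 12.16 and 12.11 on supernatant arrays, against 9.56, 9.75, 9.92 and 9.68 on media arrays of macrophages. As with Gbp3, supernatant arrays met at 11.26 to 12.16 and the media arrays set the difference. Whether the levels with supernatant limited the measured change was not tested here either. For Trim30a, the lines minus macrophages gave 4.58 (SE 0.494, adjusted p = 9.16e-07). Slfn2 and Slfn1, Schlafen genes with a role in leukocyte quiescence, split, with differences of 3.73 for Slfn2 and -4.04 for Slfn1. Slfn1 reached 11.19 to 11.84 in macrophages with supernatant, against 6.05 to 6.52 in C57epi.1 and 4.17 to 4.36 in Bm12.4. Its changes were 2.38 in C57epi.1 and 0.21 in Bm12.4, where the change was not called (adjusted p = 0.694).

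Promoter sequences are shown for 6 genes, chosen after their values were seen, among the named genes of large difference in either direction, because interferon-response elements sit close to the start of many induced genes. The 250 bases before each gene's start came from RefSeq (GRCm38.p6), on the gene's own strand, and capitals mark the interferon-stimulated response element core (GAAANNGAAA, either strand). For Trim30a (chr7:104465194-104465443, minus strand) and Gbp3 (chr3:142559794-142560043, plus strand), which rose in all 3 kinds of cell and more in the lines, the windows were:
Trim30a: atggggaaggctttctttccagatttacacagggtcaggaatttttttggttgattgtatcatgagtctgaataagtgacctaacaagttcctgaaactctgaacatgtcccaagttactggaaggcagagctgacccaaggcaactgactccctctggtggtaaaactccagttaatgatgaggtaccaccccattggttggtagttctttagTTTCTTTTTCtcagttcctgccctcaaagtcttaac
Gbp3: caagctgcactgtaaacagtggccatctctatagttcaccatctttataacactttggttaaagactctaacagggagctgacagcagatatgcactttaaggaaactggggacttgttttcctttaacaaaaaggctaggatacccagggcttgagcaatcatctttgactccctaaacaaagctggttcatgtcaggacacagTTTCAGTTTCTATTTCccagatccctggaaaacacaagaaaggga
Gbp3 held 2 overlapping matches, at -45 and -39 from the start, and Trim30a 1 at -36. Gbp2b (chr3:142594597-142594846, plus strand), which rose far more in macrophages, held 1 at -137:
Gbp2b: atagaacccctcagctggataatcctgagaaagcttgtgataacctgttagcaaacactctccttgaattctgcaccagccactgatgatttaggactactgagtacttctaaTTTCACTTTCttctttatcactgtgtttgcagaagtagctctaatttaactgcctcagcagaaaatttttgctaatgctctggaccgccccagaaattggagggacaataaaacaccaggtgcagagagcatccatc
Ms4a4d (chr19:11536544-11536793, plus strand) and Ms4a4c (chr19:11407411-11407660, plus strand) are family members of opposite difference, and neither window held the core:
Ms4a4d: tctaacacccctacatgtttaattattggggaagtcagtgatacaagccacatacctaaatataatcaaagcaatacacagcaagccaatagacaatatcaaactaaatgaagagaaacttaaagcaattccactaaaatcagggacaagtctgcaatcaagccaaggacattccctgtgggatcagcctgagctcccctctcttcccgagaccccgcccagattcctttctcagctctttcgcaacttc
Ms4a4c: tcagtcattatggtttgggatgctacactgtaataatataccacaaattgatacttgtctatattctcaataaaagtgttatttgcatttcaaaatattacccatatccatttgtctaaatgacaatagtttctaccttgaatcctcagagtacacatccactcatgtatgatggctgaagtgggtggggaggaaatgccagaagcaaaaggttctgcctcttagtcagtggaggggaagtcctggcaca
Mpeg1 (chr19:12460520-12460769, plus strand), the largest difference, held no match:
Mpeg1: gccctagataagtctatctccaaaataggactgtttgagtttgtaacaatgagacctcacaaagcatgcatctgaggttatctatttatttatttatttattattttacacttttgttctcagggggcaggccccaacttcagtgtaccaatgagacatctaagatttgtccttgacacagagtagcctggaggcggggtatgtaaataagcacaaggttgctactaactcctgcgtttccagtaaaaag
The other starts of Trim30a and Gbp3 on the chromosomes given above held no match, and any start placed on another chromosome is not shown.

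Over all genes tested, 549 of 19177 such windows (2.86%) held the core. Windows of genes that rose in both and more in the lines held it in 22 of 92 (23.9%), and those that rose in both and more in macrophages in 6 of 84 (7.14%). It was found in 12 of 258 windows (4.65%) of genes that rose in the lines alone and 17 of 365 (4.66%) of genes that rose in macrophages alone. Genes that fell in macrophages alone held it in 14 of 386 (3.63%), and genes that fell in the lines alone in 2 of 239 (0.837%). Genes that rose in both with no called difference were not counted, so these shares cannot be tied to the response difference. Genes have up to several windows each (the 92 windows came from 65 genes), and a match describes letters and no binding.

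Of the 19 measured Ms4a genes, which encode tetraspanning membrane proteins in a cluster on chromosome 19, the largest differences ran both ways. Ms4a4d had 10.26, 9.92, 9.51 and 9.72 on supernatant arrays, against 4.01, 3.58, 4.03 and 4.09 on media arrays of C57epi.1. It had 11.51, 11.77, 11.88 and 11.64 on supernatant arrays, against 5.75, 6.55, 6.78 and 6.99 on media arrays of Bm12.4, and 4.64, 4.41, 4.88 and 4.27 on supernatant arrays, against 3.83, 3.63, 3.64 and 4.05 on media arrays of macrophages. With supernatant both lines lay at 9.51 to 11.88, against 4.27 to 4.88 in macrophages. Ms4a4d differed by 4.79 (SE 0.254, adjusted p = 9.46e-12).

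Ms4a4c gave the reverse and the most negative difference of the genes named. It had 4.05, 3.61, 3.84 and 3.69 on supernatant arrays, against 3.44, 3.06, 3.42 and 3.40 on media arrays of C57epi.1. It had 4.00, 4.44, 4.40 and 4.68 on supernatant arrays, against 3.39, 3.29, 3.46 and 3.51 on media arrays of Bm12.4, and 9.44, 9.60, 10.39 and 10.17 on supernatant arrays, against 3.23, 3.46, 3.80 and 3.42 on media arrays of macrophages. Macrophages rose by 6.42, against 0.97 in Bm12.4 (adjusted p = 0.000731) and 0.47 in C57epi.1 (adjusted p = 0.0707). The lines differed from macrophages in Ms4a4c by -5.70 (SE 0.217, adjusted p = 4.44e-14). Ms4a6b (-5.42) and Ms4a6c (-5.31) lay next, with macrophage rises of 5.38 and 5.24 and lines' levels that stayed between 2.86 and 3.85. Ms4a genes are similar in sequence, so probes may share signal between members.

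**Figure D4:**
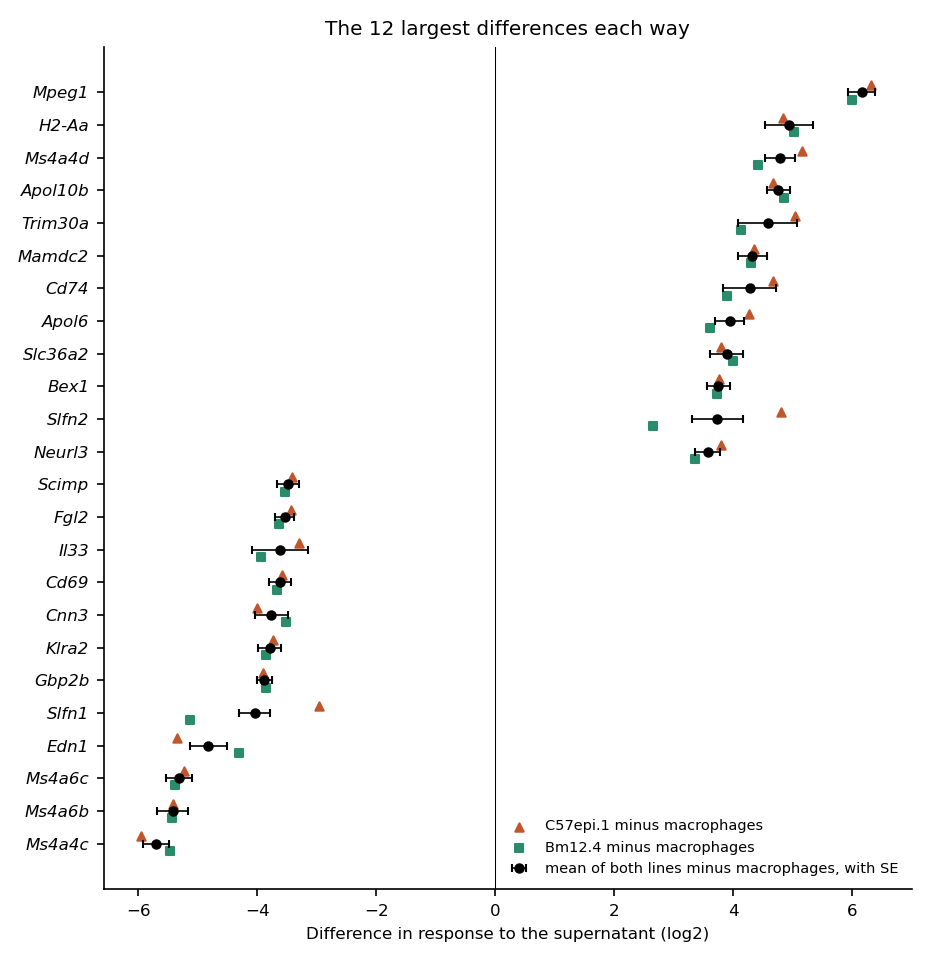
The 12 largest positive and 12 largest negative differences in response (horizontal axis, log2) among genes also called the same way in each line. Black points are the mean of both lines minus macrophages with its SE, triangles C57epi.1 minus macrophages and squares Bm12.4 minus macrophages; Mpeg1 at 6.16 and Ms4a4c at -5.70 bound the range.

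Edn1, the vasoconstrictor peptide endothelin, moved opposite ways. It had 8.96, 8.22, 8.15 and 8.23 on supernatant arrays, against 9.44, 9.41, 9.90 and 9.84 on media arrays of C57epi.1. It had 8.85, 8.70, 9.56 and 8.67 on supernatant arrays, against 9.34, 9.42, 9.52 and 8.41 on media arrays of Bm12.4, and 8.72, 8.79, 8.11 and 7.88 on supernatant arrays, against 4.41, 4.39, 4.01 and 4.38 on media arrays of macrophages. Macrophages rose by 4.08 to levels near those of both lines, C57epi.1 fell by 1.26 (adjusted p = 0.000899) and the Bm12.4 change of -0.23 was not called. The response difference of Edn1 was -4.82 (SE 0.31, adjusted p = 2.45e-10). Cnn3, a calponin that binds actin, was likewise high in the lines in both conditions (9.43 to 10.54) and rose in macrophages to 8.33 to 9.21, against 4.81 to 5.83 in media. St3gal5, which makes a ganglioside, and Kitl, the ligand of the receptor Kit, also fell in the lines' mean and rose in macrophages, with differences of -2.37 and -2.35. Running the other way, Cyp1b1 (2.07), a cytochrome P450 gene, and Nr1d1 (1.76), which encodes a circadian repressor, rose in the lines' mean and fell in macrophages.

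Genes that rose in macrophages alone included surface and secreted proteins of leukocytes. Klra2 (-3.79), a lectin-like receptor gene, Cd69 (-3.62), an early activation antigen, Fgl2 (-3.54), a fibrinogen-like protein, and Scimp (-3.48), an adaptor of class II signalling, all stayed between 2.82 and 4.18 on every array of the lines. In macrophages Fgl2 reached 11.97 to 12.24 with supernatant, against 8.32 to 9.03 in media.

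Il33, the alarmin of the interleukin-1 family, showed a split between replicates. It had 8.07, 7.91, 6.19 and 6.04 on supernatant arrays, against 3.64, 3.91, 3.85 and 3.64 on media arrays of macrophages. With supernatant, replicates 1 and 2 lay above replicates 3 and 4, and all lay above the media arrays. It had 3.79, 3.87, 3.67 and 3.83 on supernatant arrays, against 3.90, 3.45, 5.54 and 4.84 on media arrays of Bm12.4, where media replicates 3 and 4 stood highest. For Il33, the lines minus macrophages gave -3.61 (SE 0.471, adjusted p = 1.46e-05). It was -4.12 with replicates 1 and 2 and -3.10 with replicates 3 and 4.

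Mamdc2, a proteoglycan gene, Slc36a2, an amino acid transporter gene, and Bex1, a small adaptor gene, fell in macrophages alone. Mamdc2 had 6.32, 5.98, 7.42 and 6.39 on supernatant arrays, against 10.54, 10.62, 10.93 and 11.04 on media arrays of macrophages. The lines stayed between 3.25 and 3.83 for it in both conditions. Mamdc2 differed by 4.32 (SE 0.24, adjusted p = 2.07e-11). Slc36a2 fell by 3.98 and Bex1 by 3.63 in macrophages, and their differences were 3.89 and 3.75. Bex1 lay between 2.18 and 2.68 in the lines. For these genes the positive difference states a fall in macrophages and no rise in the lines. Igfbp4, which binds insulin-like growth factors, fell in both, by 0.78 in C57epi.1 and 0.54 in Bm12.4, against 2.69 in macrophages, and differed by 2.03.

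Ligands that T cells read differed in both directions. Of 23, 2 were higher and 6 lower (34.8%, against 8.08% over all genes), with a median of -0.11. Cd40, the receptor for the helper signal of CD4 T cells, had 4.87, 4.67, 4.98 and 4.85 on supernatant arrays, against 4.95, 5.29, 5.11 and 5.28 on media arrays of C57epi.1. It had 4.82, 4.81, 5.06 and 5.12 on supernatant arrays, against 4.95, 5.05, 5.14 and 5.01 on media arrays of Bm12.4, and 8.53, 8.86, 8.37 and 8.59 on supernatant arrays, against 5.58, 5.37, 5.32 and 5.42 on media arrays of macrophages. Macrophages rose by 3.16, while C57epi.1 fell by 0.32 (adjusted p = 0.0396) and Bm12.4 changed by -0.08, which was not called. The lines differed from macrophages in Cd40 by -3.36 (SE 0.13, adjusted p = 4.46e-14).

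Cd86, a costimulatory ligand of Cd28, followed the same order, at 2.94 to 3.57 on all arrays of the lines and 10.07 to 10.49 with supernatant against 7.51 to 7.86 in media in macrophages. The response difference of Cd86 was -2.75 (SE 0.134, adjusted p = 2.58e-12). Its relative Cd80 differed by 0.09 (SE 0.182, adjusted p = 0.865), with a rise of 0.89 in Bm12.4 and 0.49 in macrophages and a change of 0.27 in C57epi.1 that was not called. Pdcd1lg2 (-2.04), another ligand of the inhibitory receptor PD-1, Cd1d1 (-2.19), which presents lipids, Tnfsf4 (-1.81), the ligand of OX40, and the adhesion gene Vcam1 (-0.90) were also lower.

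Cd274, which encodes the PD-1 ligand PD-L1, ran against Cd86. It had 9.07, 8.96, 9.03 and 8.88 on supernatant arrays, against 4.05, 4.23, 4.15 and 4.16 on media arrays of C57epi.1. It had 8.86, 9.15, 8.85 and 8.93 on supernatant arrays, against 4.59, 3.95, 5.13 and 4.79 on media arrays of Bm12.4, and 12.56, 12.84, 12.55 and 12.50 on supernatant arrays, against 11.04, 11.02, 11.16 and 11.22 on media arrays of macrophages. The lines rose by 4.84 in C57epi.1 and 4.33 in Bm12.4, macrophages rose by 1.50, and the lines with supernatant stayed under the macrophage media arrays. For Cd274, the lines minus macrophages gave 3.08 (SE 0.189, adjusted p = 1.05e-10). Cd48 (1.05), an adhesion ligand, was the other higher gene. Icam1, the ligand of LFA-1, rose in all 3 kinds of cell and its difference of -0.11 (SE 0.189) was not called.

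Of 14 CXC chemokines, 4 had a called difference (28.6%, against 8.08% over all genes) and each was higher, with a median of 0.37. The Cxcr3 ligands, which draw in T cells, did not move alike. Cxcl11 differed by 2.59 (SE 0.255, adjusted p = 2.62e-07) after rises of 4.88 in C57epi.1 and 1.97 in Bm12.4, against 0.83 in macrophages. Cxcl10 differed by 1.69 (SE 0.286, adjusted p = 0.000334), reaching 13.44 to 13.86 in the lines with supernatant, against 9.10 to 9.93 in macrophages. Cxcl9 rose by 7.11 in C57epi.1 and 4.78 in Bm12.4, against 6.38 in macrophages, and its difference of -0.44 (adjusted p = 0.419) was not called. Cxcl14 (1.91) fell by 1.84 in macrophages alone, and Ppbp (0.96), which lost its call in 9 of 36 alternatives, was also higher.

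Of 18 CC and CX3C chemokines, 1 was higher and 3 lower (22.2%, against 8.08% over all genes), with a median of -0.09. Ccl20, which recruits Ccr6-bearing cells, rose by 1.74 in C57epi.1 and 2.28 in Bm12.4 and differed by 2.07 (adjusted p = 0.0208). Ccl12 (-1.84), Ccl5 (-1.26) and Ccl4 (-0.96) were lower. Ccl5 rose by 3.29 in C57epi.1 and 1.76 in Bm12.4, against 3.79 in macrophages, and its call was lost when the arrays were quantile-normalized again. The call of Ccl12 was lost with replicates 1 and 2 only, where its difference was -0.58.

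Of 26 cytokines, 4 were higher and 5 lower (34.6%, against 8.08% over all genes), with a median of -0.11. Il6 rose by 2.10 in C57epi.1 and 2.09 in Bm12.4, while the macrophage change of 0.20 was not called, and it differed by 1.90 (SE 0.254, adjusted p = 1.97e-05). Il15 (1.68), which sustains memory T cells and NK cells, rose in all 3 kinds of cell. The growth factors Csf1 (0.74) and Csf3 (0.71) were the others. Tnf differed by -1.82 (SE 0.259, adjusted p = 4.28e-05), with 7.70 to 8.75 in macrophages with supernatant against 6.09 to 7.10 in media. The lines' Tnf levels lay between 4.13 and 4.81 on all their arrays. Il12b (-2.19), a subunit of interleukins 12 and 23, Il1rn (-1.88), the interleukin-1 receptor antagonist, and Il27 (-1.27) were lower as well.

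Enzymes that starve or poison intracellular microbes split. Nos2, the inducible nitric oxide synthase, had 8.41, 9.64, 9.88 and 9.96 on supernatant arrays, against 4.62, 4.76, 4.44 and 4.43 on media arrays of C57epi.1. It had 7.40, 7.23, 6.75 and 6.37 on supernatant arrays, against 4.29, 4.11, 4.84 and 4.50 on media arrays of Bm12.4, and 10.83, 11.52, 9.50 and 10.19 on supernatant arrays, against 4.82, 4.87, 4.97 and 4.97 on media arrays of macrophages. All 3 kinds of cell rose with no overlap, by 4.91 in C57epi.1 and 2.50 in Bm12.4, against 5.60 in macrophages. Nos2 differed by -1.90 (SE 0.414, adjusted p = 0.00418). The difference was -3.10 for Bm12.4 and -0.69 for C57epi.1, where it was not called. Ido1, which breaks down tryptophan, differed by 1.55 (SE 0.281, adjusted p = 0.000709) at low levels, 4.04 to 5.55 in the lines with supernatant against 3.41 to 3.77 in media, and 3.68 to 4.92 in macrophages with supernatant against 4.56 to 4.72 in media. Acod1 (-0.85), which makes itaconate, and Ido2 (0.70) completed the 4 called of 12 (33.3%, against 8.08% over all genes). Acod1 lost its call in 6 of 36 alternatives. The list had 3 calls without media replicates 3 and 4 of the lines and 7 without media replicates 1 and 2.

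**Figure D5:**
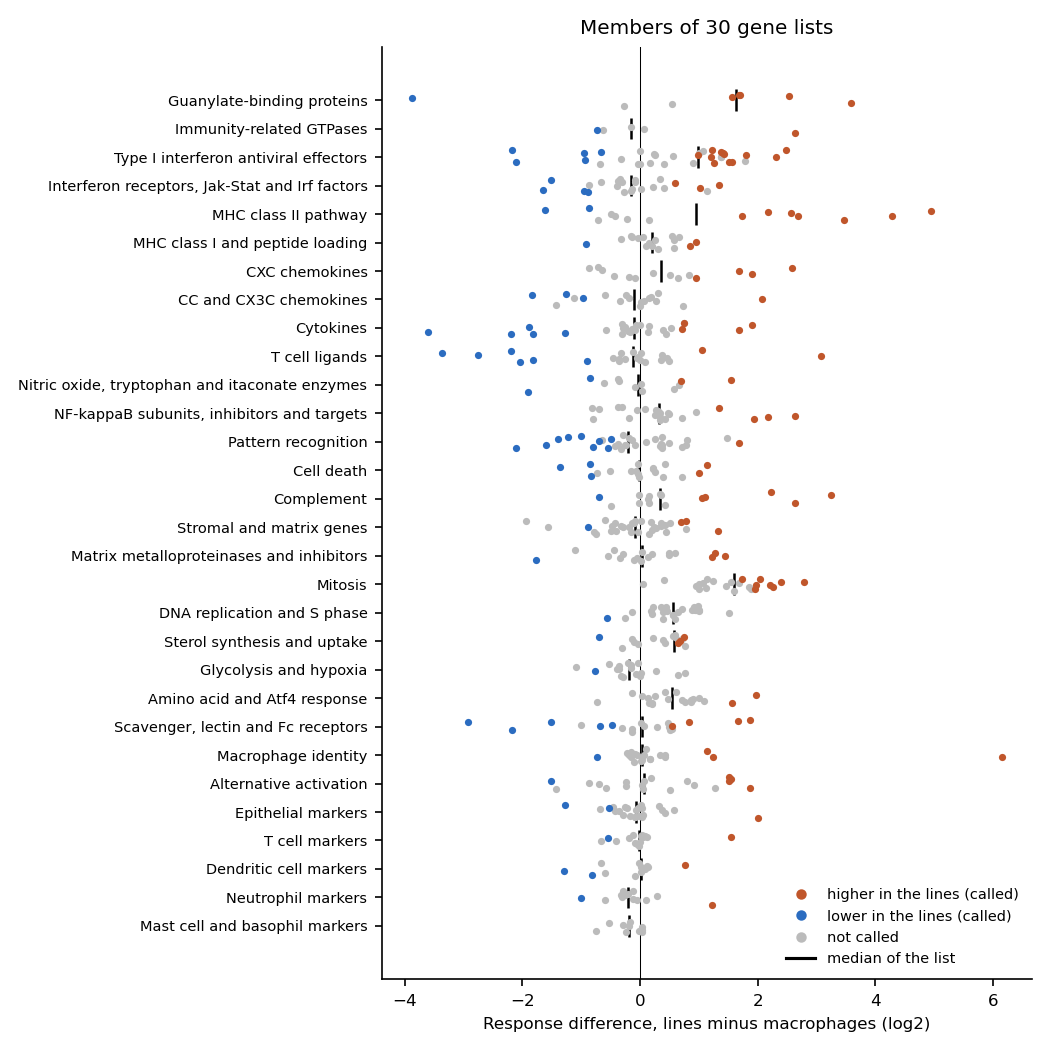
Response difference (horizontal axis, log2, lines minus macrophages) of each measured member of 30 gene lists, 1 row per list, with called genes in orange (higher) or blue (lower), other genes in grey and the list's median as a bar. The medians of the MHC class II pathway, guanylate-binding proteins and mitosis lie at 0.94, 1.63 and 1.59, against -0.025 over all genes.

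Of 23 interferon receptors, Jak-Stat and Irf factors, 3 were higher and 4 lower (30.4%, against 8.08% over all genes), with a median of -0.16. Irf1, the first factor of the interferon-gamma response, rose by 3.55 in C57epi.1 and 2.41 in Bm12.4, against 3.87 in macrophages. Its difference of -0.89 (SE 0.209, adjusted p = 0.00774) lost its call with the mean of all probe sets and with a further quantile normalization. Irf8 (-1.51), a factor of myeloid cells, and Socs3 (-1.64), an inhibitor of cytokine signals, rose in macrophages alone. Socs1 was lower by 0.95, and Batf2 (1.35), Irf5 (1.02) and the receptor chain Ifngr1 (0.59) were higher. This list had 12 calls without media replicates 3 and 4 of the lines and 16 without media replicates 1 and 2.

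Of 24 NF-kappaB subunits, inhibitors and targets, 4 had a called difference (16.7%, against 8.08% over all genes) and each was higher. The median was 0.33, and 22 rose in the lines and 17 in macrophages, against 8.79% and 6.13% over all genes. Cfb, complement factor B, differed by 2.63 (SE 0.294, adjusted p = 1.59e-06) after rises of 5.37 in C57epi.1 and 5.44 in Bm12.4, against 2.78 in macrophages. Saa3 (2.17), an acute-phase protein, Ccrl2 (1.94), which binds chemerin, and Tnip3 (1.34) were the others. Saa3 lost its call in 12 of 36 alternatives, each with 1 array left out, and ranged between 1.22 and 3.13. The list had 11 calls without media replicates 3 and 4 of the lines and 7 without media replicates 1 and 2. Of 15 complement genes, 5 were higher and 1 lower (40%). The higher ones were C4b (3.24), Cfb, the C1 inhibitor Serping1 (2.23), C4a (1.11) and the receptor C5ar1 (1.05), and the lower one C2 (-0.70). C4b differed by 4.71 with replicates 1 and 2 and 1.76 with replicates 3 and 4. C4a and C4b are near-identical, so their probes may share signal.

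Of 32 pattern recognition genes, which sense microbes, 1 was higher and 9 lower (31.2%, against 8.08% over all genes), with a median of -0.21. Clec4e, the receptor Mincle, rose by 2.27 in macrophages alone and differed by -2.10 (SE 0.223, adjusted p = 7.68e-07). Tlr9 (-1.59) and Nod1 (-1.39) were lower too, and Tlr3 (1.68), which reads double-stranded RNA, was higher after rises of 3.83 in C57epi.1 and 2.78 in Bm12.4, against 1.63 in macrophages. The median of this list was 0.02 without media replicates 3 and 4 of the lines and -0.33 without media replicates 1 and 2, with 16 calls in each. Of 18 cell death genes 2 were higher, Fas (1.14) and Daxx (1.00), and 3 lower, Cflar (-1.36), Bcl2l1 (-0.85) and Bcl2 (-0.83). These made 27.8% of the list, which had 9 and 8 calls without those same pairs.

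Of 20 scavenger, lectin and Fc receptors, which mark macrophage states, 4 were higher and 5 lower (45%, against 8.08% over all genes). The mean level of the list was 4.22 to 4.62 on the lines' arrays, against 8.85 to 9.33 in macrophages. Such low levels in the lines may be background. Siglec1 rose by 2.80 and the Fc receptor Fcgr1 by 2.06 in macrophages, with differences of -2.93 and -2.17. Mrc1 fell by 2.05 and Marco by 1.70, with differences of 1.87 and 1.66, and neither line had a called change in any of these genes. Among 19 genes of alternative activation 4 were higher, with Pparg (1.54) and Fabp4 (1.52), a nuclear receptor and its lipid-binding target, falling by 1.53 and 1.60 in macrophages, together with Klf4 (1.51) and Mrc1. Mgl2 (-1.52) was lower, so 26.3% of the list was called. The mean level of these genes was 4.73 to 5.19 on the lines' arrays, against 8.53 to 8.97 in macrophages. That list had 6 calls without media replicates 3 and 4 of the lines and 9 without media replicates 1 and 2. Of the 22 macrophage identity genes, Ctsk (1.24), Lyz1 (1.14) and Mpeg1 were higher and Spi1 (-0.73) lower, 18.2% of the list.

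Of 23 mitosis genes, 8 had a called difference (34.8%, against 8.08% over all genes) and each was higher, with a median of 1.59. Bm12.4 minus macrophages had 8 calls and a median of 1.88, C57epi.1 minus macrophages had 1 call and a median of 1.29, and 1 gene was called in both. Among the 23 genes, 11 fell in macrophages, against 6.31% over all genes. In the lines limma called 0 changes, and 0 of the 23 had an unadjusted p under 0.05. Ccna2, cyclin A, had 10.87, 10.54, 10.39 and 10.50 on supernatant arrays, against 11.11, 11.12, 10.11 and 10.15 on media arrays of C57epi.1. It had 10.73, 10.04, 9.42 and 9.72 on supernatant arrays, against 10.65, 10.65, 7.90 and 8.20 on media arrays of Bm12.4, and 4.14, 5.54, 4.84 and 6.51 on supernatant arrays, against 6.38, 8.07, 8.0 and 8.59 on media arrays of macrophages. The groups overlapped in all 3 kinds of cell, and the media arrays of both lines divided between replicates 1 and 2 and replicates 3 and 4. The lines differed from macrophages in Ccna2 by 2.79 (SE 0.716, adjusted p = 0.015). The median of the list was 0.77 with replicates 1 and 2 and 2.25 with replicates 3 and 4, and it had 7 calls without media replicates 3 and 4 of the lines and 23 without media replicates 1 and 2.

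The call of Ccna2 was lost with replicates 1 and 2 only and without macrophage supernatant replicate 1, and that of Top2a (2.26) without macrophage supernatant replicate 1 as well. Kif11 (2.21) and Prc1 (2.39) lost theirs in 10 and 4 of 36 alternatives. Of 25 genes of DNA replication, E2f1 alone was called (-0.56), 4% against 8.08% over all genes. The median of 0.56 became -0.46, with 6 calls, without media replicates 3 and 4 of the lines. Without media replicates 1 and 2 of the lines it was 1.59, with 24 calls. Of 18 sterol genes, 9 fell in macrophages and 3 in the lines, against 6.31% and 11.2% over all genes. The difference was higher in 3 of the 18 and lower in 1 (22.2%). The median of the sterol list was 0.58. Its calls numbered 4 and 13 without those same pairs. Of 20 genes of the amino acid and Atf4 response, 2 were called, 10% against 8.08% over all genes. These were the stress-induced factors Atf3 (1.97) and Ddit3 (1.57), both higher, and the median of the list was 0.54. C57epi.1 minus macrophages had 4 calls and a median of 0.95, and Bm12.4 minus macrophages 1 call and a median of -0.03. The median of the mean of both lines was -0.08, with 4 calls, without media replicates 3 and 4 of the lines. Without media replicates 1 and 2 of the lines it was 1.36, with 16 calls.

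Of 33 stromal and matrix genes, 16 fell in the lines and 7 in macrophages, against 11.2% and 6.31% over all genes. The 4 called differences (12.1%, against 8.08% over all genes) were Fn1 (1.32), S100a4 (0.79), Sparc (0.69) and Snai1 (-0.88). S100a4 lost its call in 18 of 36 alternatives and ranged between 0.17 and 1.40. The list had 10 calls without media replicates 3 and 4 of the lines and 13 without media replicates 1 and 2. Fibronectin, the product of Fn1, fell at the transcript level by 1.63 in macrophages. Of 18 matrix metalloproteinases and inhibitors, Timp3 (1.44), Timp2 (1.27) and Mmp8 (1.23) were higher and the protease gene Plau (-1.76) lower, 22.2% of the list. Without those same pairs it had 5 and 10 calls, and Mmp8 lost its call without macrophage media replicate 3. Among 24 epithelial markers (12.5% called, against 8.08% over all genes) Itga6 (2.01) was higher and Esr1 (-1.27) and Spint1 (-0.53) lower. Itga6, an integrin chain, fell by 1.59 in macrophages, and neither line had a called change. Esr1 lost its call in 8 of 36 alternatives, and the list had 5 and 4 calls without those pairs. Of 18 glycolysis and hypoxia genes, Slc16a3 (-0.77) alone was called (5.56%, against 8.08% over all genes). That list had 2 and 3 calls without those pairs.

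Marker lists of other cells had 13.3% (T cell), 23.1% (dendritic cell) and 15.4% (neutrophil) of their genes called, against 8.08% over all genes. Of 15 T cell markers, Cd28 (1.54) was higher and Cd6 (-0.54) lower, and Cd28 fell by 1.66 in macrophages alone. Of 13 dendritic cell markers, Clec9a (0.77) was higher and Ccr7 (-1.29) and Dpp4 (-0.82) lower. Of 13 neutrophil markers, Mmp8 was higher and Ly6g (-1.01) lower. Of 10 mast cell and basophil markers limma called 0, and 2 had an unadjusted p under 0.05. Limma called 0 of them without media replicates 3 and 4 of the lines and 2 without media replicates 1 and 2. Ccr7 lost its call in 4 of 36 alternatives. The part of such cells in the macrophage changes was not tested.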

How the data were processed

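Total RNA of 24 samples was hybridised to Affymetrix mouse whole-transcript arrays, 100 ng each per the labels' protocols. The authors' deposited values are on the log2 scale, and the submitters' processing notes name GCOS, Partek 6.2 and RMA, which corrects background, quantile-normalizes the arrays and summarises probe sets. Versions of GCOS and RMA are not stated there. The table held 28853 probe sets. Of these, 21789 had 1 gene symbol in the platform annotation, 1621 had several and 5443 had none, and 21698 matched a RefSeq gene (GRCm38.p6) by Entrez ID with 0 symbols changed. For 999 genes with several probe sets, the one with the highest mean was used, leaving 19938 genes. Array medians lay between 5 and 5.19 and no 2 arrays were identical. No detection p-value was used, so low levels may be background, and the number of arrays, 4 per group, limits the precision.

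One limma 3.58.1 model (R 4.3.3, statmod 1.5.0) gave each group a mean (18 residual and 3.62 prior degrees of freedom). Tests were two-sided, with Benjamini-Hochberg adjustment over 19938 genes. The code was tested on simulated data. Named were the 12 largest differences each way among genes called also in each line against macrophages, 2 to 4 members per list, 3 per pattern of change, and fixed interferon-response and cell marker genes. Predicted, Riken, LOC, histone, olfactory and vomeronasal genes were skipped if on no list. Some genes that these rules name are not reported here. The members, lists and rules were chosen with earlier results of these data known. Samples with the same replicate number did not deviate together in all groups, so the model had no replicate block. Alternatives covered normalization, probe set choice, array weights, variance settings, replicate sets and each array left out. Probe sets with several symbols or none entered no comparison.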

Additional observations from a re-analysis of the deposited data

Results flagged for a closer look

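In all, 13 values stood apart from the other 3 arrays of their group by Dixon's criterion for 4 samples, of 234 groups tested, and chance gives about 1 in 20. Those on C57epi.1 supernatant arrays were Apol6 on replicate 4 (8.37, others 8.86 to 8.95), Edn1 on replicate 1 (8.96, others 8.15 to 8.23) and Mpeg1 on replicate 4 (10.43, others 10.22 to 10.24). On C57epi.1 media replicate 2 they were Cd80 (4.21, others 4.87 to 4.97), Cd86 (3.57, others 3.13 to 3.16), Ms4a4c (3.06, others 3.40 to 3.44) and Ms4a4d (3.58, others 4.01 to 4.09). On media replicate 4 of C57epi.1 Icam1 read 7.95, against 7.68 to 7.72 on the others. In Bm12.4, Ido1 read 4.99 on supernatant replicate 1 (others 4.04 to 4.08) and Edn1 read 8.41 on media replicate 4 (others 9.34 to 9.52). In macrophages in media, Edn1 read 4.01 on replicate 3 (others 4.38 to 4.41), Gbp2b read 4.33 on replicate 2 (others 4.09 to 4.11) and Il6 read 3.12 on replicate 2 (others 2.72 to 2.78).

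The change with supernatant differed between the lines and macrophages for 1611 of 19938 genes by limma's interaction test, as reported above. Outside the named genes, 79 of 1621 probe sets with several gene symbols had a called difference (49 higher and 30 lower), and 105 of 5443 with no symbol had one (56 higher and 49 lower).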

How the results depend on the processing

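The 1611 calls of the lines minus macrophages numbered 1311 to 1816 with each array left out in turn, 2684 with replicate set as a term, 3317 with replicates 3 and 4 only, 2584 with array weights, 930 at an adjusted p under 0.01 and 1026 with Bm12.4 as the only line. The 1980 calls of C57epi.1 minus macrophages numbered 1597 to 2373 with each array left out, 3361 with the set term, 4086 with replicates 3 and 4 only, 3953 with array weights and 1050 at 0.01. The 1124 calls of Bm12.4 minus macrophages numbered 911 to 1208 with each array left out, 1847 with the set term, 1834 with replicates 3 and 4 only and 638 at 0.01. The 3994 calls of the lines' mean change numbered 3464 to 4473 with each array left out and 6598 with replicates 3 and 4 only, and the 2482 calls of the macrophage change 2008 to 2607 and, with array weights, 3752. The next 2 settings were added after seeing the data. Without media replicates 3 and 4 of both lines, the calls were 2785 for the lines minus macrophages and 3121 for Bm12.4 minus macrophages. Without media replicates 1 and 2 of both lines, they were 5083 for the lines minus macrophages, 5069 for C57epi.1 minus macrophages, 3171 for Bm12.4 minus macrophages, 7786 for the lines' mean change and 3760 for the macrophage change, whose own arrays stayed the same while the residual shared by all groups did not. The cause of the other changes was not tested. The share of higher differences was 52.9% and moved most, to 61.9%, with replicates 1 and 2 only. Replicate numbers were shared by all groups, but pairs of the same number correlated from -0.177 to 0.683 in their deviations (24 of 60 over 0.1), so they were not taken as pairs. Within the lines they did run together: supernatant and media arrays of the same number correlated over 0.1 in 4 of 4 pairs of Bm12.4 (0.226 to 0.683) and 3 of 4 of C57epi.1, and the media arrays of C57epi.1 and Bm12.4 at 0.512 to 0.625. With the number as a block, 1888 differences were called and 1583 of the 1611 remained. With replicates 1 and 2 only 988 of the 1611 remained, and with replicates 3 and 4 only 1183 did. In each set alone, which has fewer arrays per group, 730 were called in the same direction. The 24 largest named differences kept call and direction in all 36 alternatives, as did 110 of 151 named called genes, and 41 lost the call in at least 1. Those 24 were chosen as the largest calls of the same arrays, so their persistence adds no evidence. With replicates 1 and 2 only, Ms4a8a reached 0.72 (adjusted p = 0.0164), against -0.27 and no call with all arrays. Log2 levels near the low end of the arrays may be background, so small differences of such genes are the least certain.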

Other observations

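Members of a few gene families were counted after their values were seen, so the counts are descriptions. Over all genes, 8.08% had a called difference, 8.79% rose in the lines and 6.13% rose in macrophages. Of 19 measured Ms4a genes, 1 was higher and 5 lower in the lines' response, and 3 rose in the lines and 7 in macrophages. Of 7 Apol genes 4 were higher, and 4 rose in the lines. Of 5 Trim30 and Trim12 genes, restriction-factor relatives, 4 were higher, with a median difference of 2.77, although all 5 rose in both kinds of cell. Of 7 interferon-inducible Ifi200 genes, which sense DNA, 4 were higher, with 6 rising in the lines and 5 in macrophages. Of 9 Slfn genes 4 were higher and 2 lower, with 8 rising in the lines and 8 in macrophages.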
